A study of Mus musculus with 4 samples.

Results

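The syndecans are a family of transmembrane proteoglycans, and their 4 mouse genes, Sdc1, Sdc2, Sdc3 and Sdc4, were taken by name from the 54532 genes of the count table. The samples were naive splenic CD8+ T cells of C57BL/6 mice, purified on magnetic beads and cultured for 48 h with antibodies to CD3 and CD28, which stand in for antigen and costimulation. IFNα, a type I interferon, was added at 2000 U/ml to 2 samples and left out of 2 control samples, so every sample was activated and none was resting. Whether the 2 samples of a group were separate mice, cultures or only libraries is not stated, so a p-value reflects their spread alone, and that spread may be technical. The family was selected on its counts in this same comparison of IFNα with control, which were already known. Its levels and fold changes are therefore given as a description, without p-values, and tests are given for other genes.

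A syndecan has an extracellular part that carries heparan sulfate chains, a single membrane span and a short, conserved cytoplasmic tail. The sulfated chains bind chemokines, cytokines, growth factors and matrix proteins and present them to their receptors, the tail binds adaptors such as syntenin, and proteases can release the extracellular part. Syndecan-1, or CD138, is widely used to mark plasma cells, syndecan-2 is prominent in fibroblasts and other mesenchymal cells, syndecan-3 is best known from neurons, and syndecan-4 is found in many tissues, at focal adhesions.

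All 4 genes lay on different chromosomes, and their positions in the files were those of the GENCODE M21 annotation of GRCm38. Sdc3 (ENSMUSG00000025743) lay at chr4:130792537-130826319 on the plus strand, with 5989 bases of exon in 5 annotated transcripts. Sdc1 (ENSMUSG00000020592) lay at chr12:8771323-8793715 on the plus strand, with 3809 exonic bases. Sdc4 (ENSMUSG00000017009) lay at chr2:164424247-164443887 on the minus strand, with 2547 exonic bases. Sdc2 (ENSMUSG00000022261) lay at chr15:32920723-33034935 on the plus strand, with 3527 exonic bases.

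RefSeq promoter windows on GRCm38.p6, running from 250 bases before the RefSeq gene start to 50 after it, were matched for 3 of the 4 genes. They are shown because 1 of these genes, Sdc3, had far more transcript with IFNα and the other 2 did not. Each is written 5′ to 3′ on the gene's own strand, with CpG dinucleotides in capitals. The Sdc3 window is chr4:130792287-130792586 (plus strand). The Sdc1 window is chr12:8771146-8771445 (plus strand, placed on a start that lies inside the gene model of the files). The Sdc4 window is chr2:164443139-164443438 (minus strand, inside the longer gene model of the files).
Sdc3: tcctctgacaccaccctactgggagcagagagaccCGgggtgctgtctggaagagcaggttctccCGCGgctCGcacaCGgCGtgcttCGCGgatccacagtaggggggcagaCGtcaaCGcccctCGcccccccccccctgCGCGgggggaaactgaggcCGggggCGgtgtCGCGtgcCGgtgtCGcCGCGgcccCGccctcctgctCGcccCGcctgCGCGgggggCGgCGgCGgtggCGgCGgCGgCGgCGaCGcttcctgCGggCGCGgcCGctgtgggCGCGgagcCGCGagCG
Sdc1: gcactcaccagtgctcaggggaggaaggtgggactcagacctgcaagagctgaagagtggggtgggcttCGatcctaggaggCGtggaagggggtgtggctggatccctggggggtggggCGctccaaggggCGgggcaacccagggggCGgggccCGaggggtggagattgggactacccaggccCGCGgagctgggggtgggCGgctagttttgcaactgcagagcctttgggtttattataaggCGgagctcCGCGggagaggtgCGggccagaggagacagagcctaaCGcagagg
Sdc4: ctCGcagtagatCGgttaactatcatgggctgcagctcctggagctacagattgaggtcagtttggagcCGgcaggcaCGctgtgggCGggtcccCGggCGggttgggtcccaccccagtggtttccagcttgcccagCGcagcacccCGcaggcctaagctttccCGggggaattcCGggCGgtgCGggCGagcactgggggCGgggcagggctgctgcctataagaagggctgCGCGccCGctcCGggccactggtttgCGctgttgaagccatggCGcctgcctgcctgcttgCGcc

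The Sdc3 window was the richest of the 3 in CpG, with 44 dinucleotides against 14 in Sdc1 and 22 in Sdc4. Its G and C bases made up 77.7% of the window, more than in 97.9% of all 32851 promoter windows, where the median was 52.7%. The windows of Sdc1 and Sdc4 had 66.3% and 67.7%. The interferon-stimulated response element, the site of the complex ISGF3 that acts downstream of the IFNα receptor, was searched on both strands as GAAA, any 2 bases and GAAA. It was found in none of the 3 windows, and neither was the same repeat with 3 bases between (an IRF repeat), the STAT site TTCNNNGAA, its stricter form TTCCNGGAA, which overlaps it, or the NF-kB site read as GGGA, any base and TTTCC. Of all windows, 3.44% held the response element, 2.75% the IRF repeat, 8.30% the STAT site, 1.15% its stricter form and 0.411% the NF-kB site. Other spellings of the NF-kB site were not searched, so its absence holds for this form only. Of the 141 genes called higher with IFNα that had a window, 49 (34.8%) held the response element, against 377 of 9729 tested genes with a window (3.88%). Sdc3 thus belonged to the remaining induced genes whose window lacks these letters, which says nothing about sites elsewhere in the gene.

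Between 16096121 and 17676062 counts were assigned to genes per sample. All 9 genes listed to check the treatment, among them Isg15, Mx1 and Rsad2, passed the test as higher with IFNα, and the 7 markers of CD8+ T cells summed to 3221 and 3359 CPM (counts scaled to a common library size) with IFNα and to 3673 and 2959 CPM in the controls. Agreement was closer within the IFNα group than among the controls. Relative to counting error, the variance within the group (a chi-square over its degrees of freedom) was 3.79 with IFNα and 43.8 for the controls, and part of the difference between the controls followed gene length. Among the 14417 genes that passed the filter on low counts, 185 (1.28%) were called higher with IFNα and 20 (0.139%) lower. A call needed both an adjusted p below 0.05 in the quasi-likelihood test of edgeR and a change of more than 2-fold. Both numbers of called genes were larger when either control was left out. The control that remains then has no spread of its own, so these fits are not compared with the main one.

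Sdc3 was the member that differed most. It had 2552 and 2894 counts in the IFNα samples, against 50 and 74 in the controls. Scaled to library size this was 160 and 168 CPM with IFNα and 2.89 and 4.22 CPM in the controls. Both IFNα samples thus lay far above both controls, and as a ratio they differed from each other less (0.07 on the log2 scale) than the controls did (0.54). The mean was 164 ± 5.61 CPM with IFNα and 3.55 ± 0.938 CPM in the controls (SD, n = 2 each), which is 46.2-fold. The fitted log2 fold change was 5.53 (standard error 0.20), the 20th largest of the 14417 genes tested. For the summed counts of 5446 with IFNα and 124 in the controls, the exact 95% counting interval of the ratio was 38.6 to 55.6. Intervals of this kind cover counting error only. In bulk RNA, a change in the number of cells that carry a transcript and a change in the amount per cell cannot be told apart.

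The other members were near the lower limit of detection. Sdc1 had 9 and 15 counts with IFNα and 29 and 19 in the controls, or 0.565 and 0.871 CPM against 1.68 and 1.08 CPM. Both IFNα samples were below both controls, which also held for 23.4% of all genes tested. The fitted log2 fold change was -0.93 (standard error 0.48), and the ratio of summed counts was 0.526 with a counting interval of 0.308 to 0.875. Sdc4 had 11 and 6 counts with IFNα and 14 and 16 in the controls, or 0.690 and 0.348 CPM against 0.809 and 0.912 CPM. Here too the groups did not overlap, but the IFNα samples differed from each other by more than the nearest IFNα and control samples did. Its log2 fold change was -0.73 (standard error 0.54), and the counting interval of the ratio was 0.308 to 1.12. As these intervals leave out the spread between samples, no difference is read from that of Sdc1 or that of Sdc4.

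Sdc2 was not detected in 3 of the 4 samples. It had 0 and 2 counts with IFNα and 0 and 0 in the controls, and it did not reach the filter on low counts. A count of 0 over both controls allows up to 0.0874 CPM, taken as 3 counts of the total, and the 2 counts with IFNα are below the same limit. No fold is given for this reason, and a difference below that limit would not have been detectable at this depth. Of the 3 members that passed the filter, 1 was called higher and none lower by the rule that called 1.28% and 0.139% of all tested genes in these directions, and 1.42% in either. At the adjusted p alone the same member passed, as did 1.65% of all tested genes in either direction. By samples that do not overlap, 1 of the 3 lay above the controls and 2 below, as did 23.1% and 23.4% of all tested genes. Since the family was chosen with this comparison known, nothing is read from that count.

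**Figure D1:**
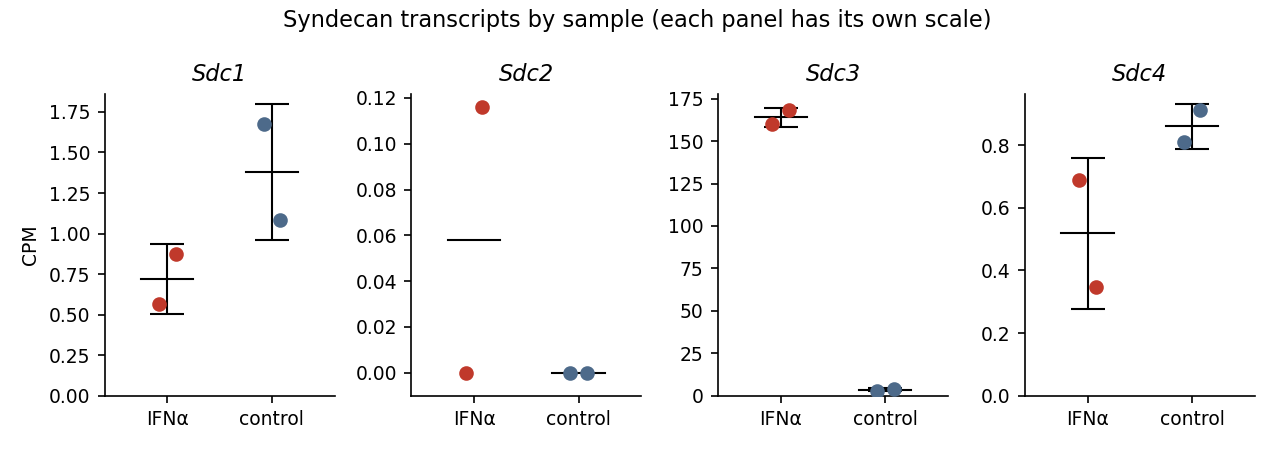
CPM of Sdc1, Sdc2, Sdc3 and Sdc4 in the 2 IFNα samples (red) and the 2 control samples (blue), with the mean as a line and the SD as error bars (no SD for Sdc2). Each panel has its own linear axis. Sdc3 reaches 160 and 168 CPM with IFNα against 2.89 and 4.22 CPM in the controls, while Sdc1 and Sdc4 stay at or below 1.68 CPM in every sample.

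The make-up of the family differed accordingly. Sdc3 made up 99.2% of the 2572 and of the 2917 syndecan counts in the IFNα samples (exact 95% binomial interval 98.8% to 99.5% in each). In the controls it made up 53.8% (43.1% to 64.2%) of 93 counts and 67.9% (58.3% to 76.5%) of 109 counts. Sdc3 was therefore the most counted syndecan in all 4 samples. Sdc1 took 0.350% and 0.514% of the family counts with IFNα and 31.2% and 17.4% in the controls, and Sdc4 took 0.428% and 0.206% with IFNα against 15.1% and 14.7% in the controls. These shares depend on Sdc3, since the family total with IFNα is almost wholly Sdc3.

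**Figure D2:**
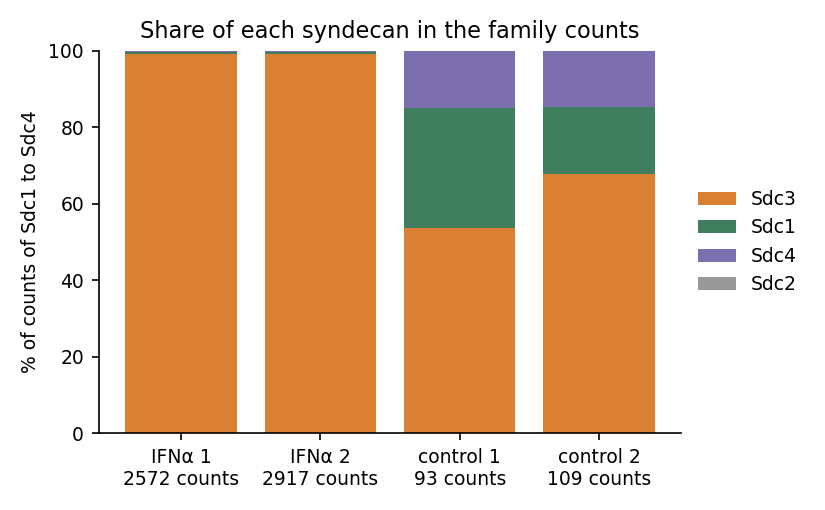
Share of each syndecan in the summed counts of Sdc1 to Sdc4, in percent, for the 2 IFNα samples (left) and the 2 control samples (right), with the family total under each bar. Sdc3 fills 99.2% of both IFNα bars and 53.8% and 67.9% of the control bars.

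Levels of different genes were compared per kilobase of exon. With IFNα the order was Sdc3 (27.4 ± 0.936 CPM per kilobase), Sdc4 (0.204 ± 0.0949), Sdc1 (0.188 ± 0.0569) and Sdc2 (0.0165 ± 0.0233; SD, n = 2 each). The samples of Sdc4 and Sdc1 overlapped, and their order turned round without the division by length. In the controls the order was Sdc3 (0.593 ± 0.157 CPM per kilobase), Sdc1 (0.362 ± 0.110), Sdc4 (0.338 ± 0.0284) and Sdc2 at 0, and again Sdc1 and Sdc4 overlapped. The 2 control samples of Sdc3, at 0.483 and 0.704, lay just above the higher sample of Sdc1, at 0.440. Sdc3 thus had a level above that of 84.9% of the tested genes with IFNα, against 13.5% of them in the controls.

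Set beside 22 other proteoglycan genes, a list written from textbook roles, Sdc3 ranked 2nd of 26 core proteins per kilobase with IFNα and 9th in the controls. Serglycin (Srgn), a proteoglycan of the granules of cytotoxic cells, was the highest in both groups, at 78.5 ± 4.21 CPM per kilobase with IFNα and 92.1 ± 13.9 in the controls. With IFNα the level of Sdc3 was above that of Cd74 (23.7 ± 0.812), the invariant chain of MHC class II, of which a form carries chondroitin sulfate, and above that of the hyaluronan receptor gene Cd44 (9.22 ± 0.536). Among membrane heparan sulfate proteoglycans, the nearest was the betaglycan gene Tgfbr3, at 5.47 ± 0.176 CPM per kilobase with IFNα and 5.43 ± 1.59 in the controls. The glypican Gpc1 had 1.99 ± 0.192 with IFNα and 1.71 ± 0.0803 in the controls (SD, n = 2 each).

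**Figure D3:**
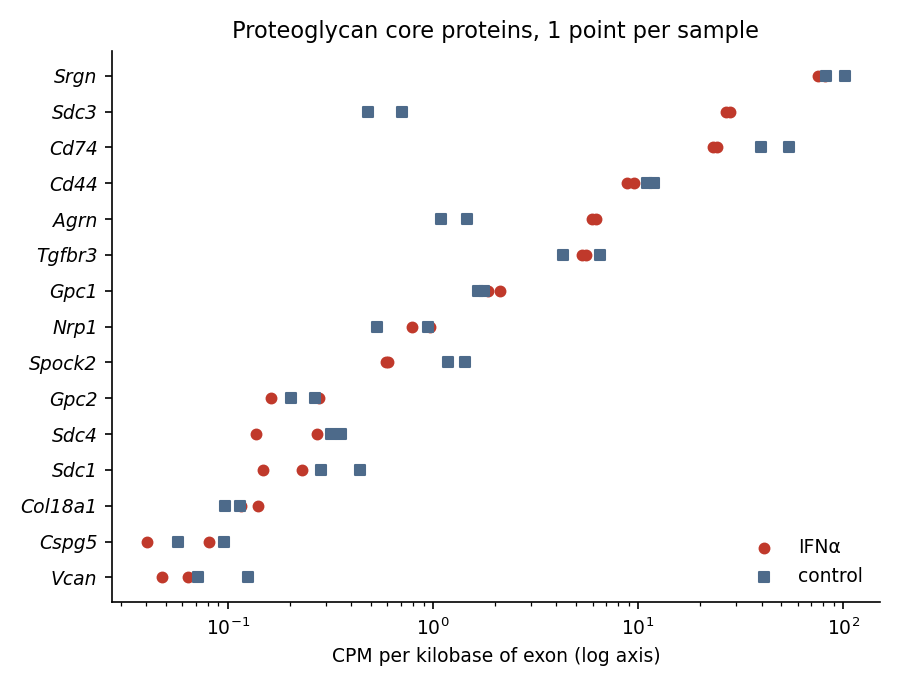
Level per kilobase of exon (CPM per kilobase, log axis) of syndecans and other proteoglycan core proteins, with circles for the 2 IFNα samples and squares for the 2 control samples. Genes whose mean is 0.05 or less in either group are left out. Sdc3 lies at 26.7 and 28.1 with IFNα against 0.483 and 0.704 in the controls, next below Srgn with IFNα, and Agrn is the other gene whose IFNα samples stand well to the right.

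Of the 22 other proteoglycans, 12 passed the filter, 5 had 0 counts in all samples, and 1, Agrn, rose. Agrn encodes agrin, a heparan sulfate proteoglycan of basement membranes that organizes the neuromuscular junction. It had 55.3 and 58.2 CPM with IFNα, against 10.2 and 13.7 CPM in the controls, and the groups did not overlap. With a log2 fold change of 2.25 and a standard error of 0.18, its adjusted p in edgeR's quasi-likelihood test was 0.0043, and it was higher in 2 of 2 IFNα samples. It passed under each of 16 alternative settings, with adjusted p-values of at most 0.0074. Cd74 had 34.2 and 32.6 CPM with IFNα and 77.0 and 56.0 CPM in the controls, and it did not pass the test (log2 fold change -0.99, adjusted p = 0.0865). Among fits of all 4 samples, Cd74 passed as lower with DESeq2, edgeR's exact and likelihood ratio tests, no filter and the gene length offset. The replicate block and a block of crossed replicate pairs, added after the data had been seen, also gave this. With limma-voom, the stricter filter and the other scalings Cd74 did not pass. At an unadjusted p under 0.05, 3 genes of the list were lower, and with adjustment the exact and likelihood ratio tests called 2 lower, DESeq2 1 and limma-voom 0. Srgn had a log2 fold change of -0.23 and an adjusted p of 0.604. The median over the 12 genes was -0.16, against -0.01 over all genes tested.

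Genes for the enzymes that build the sugar chains did not pass the test in either direction. All 7 genes of the linker that joins a chain to its core protein were tested, and 0 reached an adjusted or an unadjusted p below 0.05 by any of 5 tests (edgeR's quasi-likelihood, likelihood ratio and exact tests, limma-voom and DESeq2). Their log2 fold changes ran from -0.20 in B4galt7, a galactosyltransferase, to 0.29 in Fam20b, the xylose kinase. B3gat3, a glucuronosyltransferase and the highest of the list per kilobase, had 44.7 ± 0.272 CPM with IFNα and 49.8 ± 11.3 CPM in the controls (SD, n = 2 each).

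For heparan sulfate itself, 18 of 30 genes of polymerization, sulfation and precursor supply were tested and 0 passed. At an unadjusted p under 0.05, 0 were higher and 3 were lower by the quasi-likelihood test, and with adjustment edgeR's likelihood ratio and exact tests called 1 lower and DESeq2 and limma-voom 0. The median log2 fold change was -0.13. The polymerase genes did not pass. Ext1 had 16.8 and 13.4 CPM with IFNα against 18.4 and 20.6 CPM in the controls, and Ext2 had 49.6 and 54.7 CPM with IFNα against 61.1 and 52.8 CPM. Ndst1, an N-sulfotransferase, had 71.7 CPM in both IFNα samples, and 33.2 and 66.2 CPM in the controls, so that control replicate 1 stood apart from the other 3 samples (log2 fold change 0.53, adjusted p = 0.58). Ext1, Ext2 and Ndst1 were singled out for their roles after their values were seen.

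By the rule for named genes, 2 more of this list are Sulf2 and Papss1. Sulf2, which removes sulfate from chains outside the cell, had 1 and 2 counts with IFNα and 11 and 10 in the controls (log2 fold change -2.64, standard error 0.84, adjusted p = 0.234). Papss1, which makes the sulfate donor, had 21.3 ± 1.86 CPM with IFNα and 28.1 ± 0.0412 CPM in the controls (adjusted p = 0.366). Slc35b2, which carries that donor into the Golgi, had a log2 fold change of -0.02. Genes with 0 counts in all samples numbered 7, among them Ndst3 and Ndst4.

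Syndecan-1 and syndecan-3 can also carry chondroitin sulfate. Of 16 genes of its synthesis 12 were tested and 0 passed, while at an unadjusted p under 0.05, 2 were higher and 2 lower. With adjustment edgeR's likelihood ratio and exact tests called 1 higher, and DESeq2 and limma-voom 0. The sulfotransferase Chst11 had 14.9 and 13.4 CPM with IFNα and 6.53 and 9.06 CPM in the controls (log2 fold change 0.86, quasi-likelihood adjusted p = 0.193). Among fits of all 4 samples it passed as higher without a filter, by the exact and likelihood ratio tests and with the block of crossed pairs. It did not pass under the other settings, DESeq2 and limma-voom among them. The synthase Chsy1, the highest of the list per kilobase, had 59.0 ± 0.923 CPM with IFNα and 43.7 ± 2.84 CPM in the controls (SD, n = 2 each; adjusted p = 0.272).

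Proteases that can release syndecan ectodomains, their inhibitors and the enzymes that cut or degrade heparan sulfate formed a list of 21 genes. Of these, 13 were tested and 0 passed by the quasi-likelihood test, with 0 higher and 2 lower at an unadjusted p under 0.05. With adjustment edgeR's exact and likelihood ratio tests and DESeq2 called 1 lower, and limma-voom 0. Timp2, an inhibitor of matrix metalloproteinases, was at the edge, with 15.4 and 17.6 CPM with IFNα and 30.9 and 30.0 CPM in the controls (-0.88 ± 0.14 on the log2 scale, fold change ± standard error, adjusted p = 0.0513). Among fits of all 4 samples, Timp2 passed as lower with upper-quartile or total-count scaling, no filter and the gene length offset. It also did with DESeq2, the exact and likelihood ratio tests, the replicate block and the block of crossed pairs. With RLE scaling, the stricter filter and limma-voom Timp2 did not pass. The lysosomal sulfamidase gene Sgsh stood at -0.60 on the log2 scale and did not pass (adjusted p = 0.301). Adam10, a sheddase and the highest gene of the list per kilobase, had 163 and 161 CPM with IFNα and 122 and 159 CPM in the controls (adjusted p = 0.648).

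No cytoplasmic partner passed the test. All 22 were tested, and 0 reached an unadjusted or an adjusted p below 0.05 by any of the same 5 tests. Their log2 fold changes ran from -0.40 in Gipc1, an adaptor with a PDZ domain, to 0.28 in Ezr, which links the membrane to actin and had 412 ± 6.17 CPM with IFNα and 340 ± 0.000724 CPM in the controls. The scaffold gene Rack1, the highest per kilobase, had 1567 ± 137 CPM with IFNα and 1936 ± 453 CPM in the controls (SD, n = 2 each; edgeR adjusted p = 0.624). Sdcbp, which encodes the tail-binding adaptor syntenin and is named here for that role, had 116 and 118 CPM with IFNα and 115 and 119 CPM in the controls, with a log2 fold change of 0.00 (standard error 0.12).

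Among 27 ligands and co-receptors, 15 were tested and 1 rose, Vegfa, a heparin-binding growth factor of blood vessels. It had 70 and 87 counts with IFNα against 21 and 20 in the controls, or 4.39 and 5.05 CPM against 1.21 and 1.14 CPM. Its log2 fold change was 2.0 with a standard error of 0.29, and edgeR's quasi-likelihood test gave an adjusted p of 0.0344. Without IFNα replicate 2 it no longer passed (adjusted p = 0.0748), and over 15 alternatives its adjusted p ran from 4.3e-07 to 0.0748. Fgfr1, a growth factor receptor that uses heparan sulfate, had 1.09 ± 0.0595 CPM with IFNα and 2.38 ± 0.503 CPM in the controls (SD, n = 2 each; adjusted p = 0.314). The integrin chain Itgb1, the highest of the list per kilobase, had a log2 fold change of 0.16.

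Over these 7 lists together, 99 of 145 genes were tested, 2 rose and 0 fell. This was 2.02% and 0% of the genes, where an adjusted p under 0.05 was reached by 1.43% of all tested genes as higher and by 0.222% as lower. At an unadjusted p under 0.05, 4 were higher and 12 lower, and the median log2 fold change was -0.07. The share of all tested genes at that threshold is not given here, nor are the shares that the other tests called at an adjusted p alone. No lean in direction is therefore read from such counts, for the lists together or singly. With adjustment, edgeR's likelihood ratio and exact tests called 3 higher and 4 lower each, DESeq2 called 2 and 2, and limma-voom 2 and 0. More list genes passed in both directions when 1 control was left out. A control left alone has its spread estimated from the IFNα group, so nothing is read from this.

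**Figure D4:**
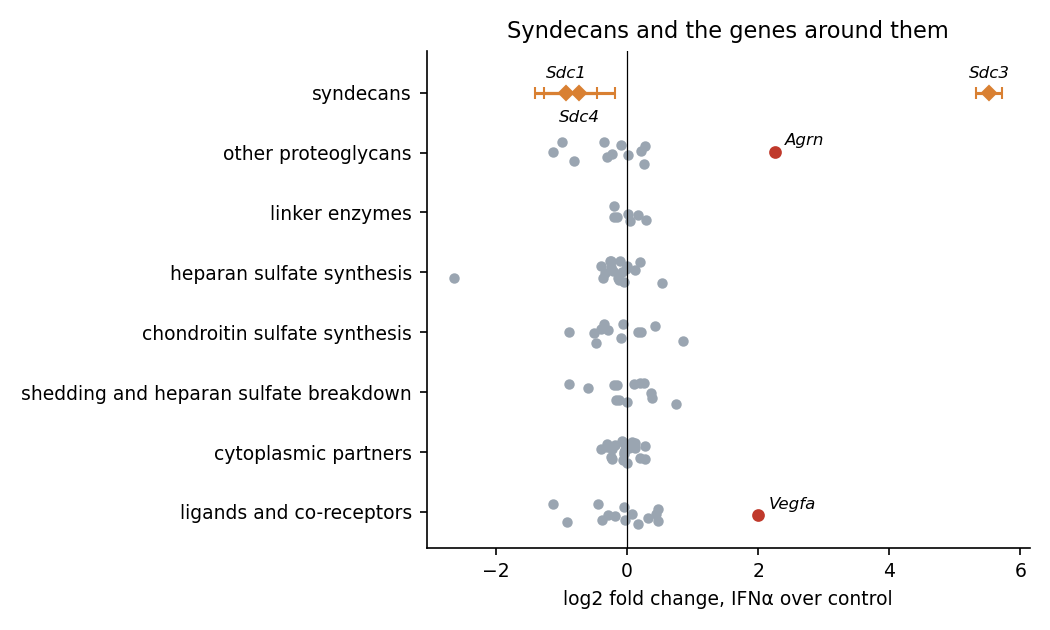
Log2 fold change of IFNα over control for the 3 syndecans that passed the filter (diamonds, with standard errors) and for the tested genes of 7 lists around them, 1 point per gene, spread vertically for legibility. Red points passed at an adjusted p under 0.05. Agrn at 2.25 and Vegfa at 2.0 are the red points, and Sdc3 stands at 5.53.

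The chromosome around Sdc3 was also examined. Within 250 kb on either side lay 15 genes, a window added after the values of Sdc3 were seen, of which 5 were tested and 0 reached an adjusted or unadjusted p below 0.05 by the same 5 tests, with log2 fold changes between -0.50 and 0.54. Laptm5, a lysosomal membrane protein of blood cells and the next tested gene downstream, had 8001 and 8279 counts with IFNα and 7518 and 7627 in the controls (log2 fold change 0.18, adjusted p = 0.633). Near Sdc1, Sdc2 and Sdc4, 4, 1 and 4 genes were tested and 0 passed, and 1 near Sdc4 was lower at an unadjusted p below 0.05 by edgeR's likelihood ratio test alone.

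A pair of annotated genes overlap Sdc3 on the opposite strand, and the sources used here do not say whether counting used strand. Gm12970 had 3 and 7 counts with IFNα and 0 and 0 in the controls, and its annotated transcripts share no stretch of 50 bases with those of Sdc3. Gm26716 had 0 counts in all 4 samples. Read on either strand, its transcripts held 318 of the 5937 distinct stretches of 50 bases in Sdc3 transcripts (5.36%), and those of no other gene held any. Of Sdc1 stretches 0.782% and of Sdc2 stretches 1.98% recurred in transcripts of other genes, and of Sdc4 stretches 0%.

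The profile of Sdc3 over the 4 samples was closest to those of other genes with far more transcript with IFNα. Likeness was the distance between profiles of log2(CPM + 1), each centred on its own mean, over 9433 protein-coding genes with a mean of at least 5 CPM. The nearest was Slfn5 (distance 0.24), of the Schlafen family, with 369 and 361 CPM with IFNα and 7.86 and 8.77 CPM in the controls. Next came Cxcl10 (0.42), a chemokine that attracts CXCR3-bearing T cells, with 226 and 233 CPM with IFNα and 4.80 and 4.33 CPM in the controls, and Ifi204 (0.50), a DNA sensor. The profile of Sdc1 was nearest to those of Cby1, Gabarapl1 and Batf, and that of Sdc4 to those of Smpdl3b, Cacna2d4 and Ext1. The profiles of Sdc1 and Sdc4 rest on low counts, and with 4 samples likeness describes the shape of few points. Likeness also used the same values as the fold change. Genes near Sdc3 therefore had to have a large fold too, and nothing further is read from their names.

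Other cells that could bring syndecan transcripts were looked for by their markers. Of the macrophage and monocyte list, C1qa was at 0 in all samples and Cd14 had 0 and 0 counts with IFNα and 2 and 3 in the controls. Adgre1 had 6 and 3 counts with IFNα and 0 and 4 in the controls, and C1qb had 4 and 2 with IFNα and 0 and 1 in the controls. The 9 markers summed to 11.8 and 14.7 CPM with IFNα and to 25.4 and 23.3 CPM in the controls. Most of that sum was Lyz2 and Cd68, and the part of such cells in the Sdc3 counts was not tested. Cd68 had 84 and 121 counts with IFNα and 129 and 128 in the controls. Csf1r overlapped, with 13 and 17 counts with IFNα and 11 and 21 in the controls. Itgam had 1 and 5 counts with IFNα and 12 and 7 in the controls. Lyz2, at 4.96 and 6.10 CPM with IFNα and 16.5 and 14.0 CPM in the controls, fell (log2 fold change -1.46, edgeR quasi-likelihood adjusted p = 0.0297). Of 11 plasma cell genes, Tnfrsf17 was at 0 in all samples, Mzb1 had 4 and 2 counts with IFNα and 1 and 2 in the controls, and Jchain had 25 and 24 with IFNα and 27 and 13 in the controls. Their sum was 605 and 599 CPM with IFNα and 752 and 740 CPM in the controls. It was mostly Ighm, Irf4 and Xbp1, of which activated T cells express Irf4 and Xbp1. Derl3 of this list fell (log2 fold change -1.65, edgeR quasi-likelihood adjusted p = 0.0268). Prdm1 lay higher, at 2.38 and 1.74 CPM with IFNα and 1.10 and 1.14 CPM in the controls. Igkc overlapped, with 52 and 56 counts with IFNα and 58 and 34 in the controls. Neither Prdm1 nor Igkc passed the test. The part of such cells in the Sdc1 counts was not tested.

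Of 7 fibroblast and stromal genes, Col3a1, Dcn and Pdgfra were at 0 in all samples. The sum was 1.32 and 1.92 CPM with IFNα and 1.10 and 1.37 CPM in the controls, mostly Pdgfrb and Col1a1. Pdgfrb had 9 and 18 counts with IFNα and 14 and 10 in the controls. Col1a1 had 11 and 15 counts with IFNα and 3 and 10 in the controls. Neither Pdgfrb nor Col1a1 passed the test. Sdc2 was all but undetected, and the part of such cells in its counts was not tested. The 5 dendritic cell genes summed to 2.64 and 2.55 CPM with IFNα and to 4.16 and 3.99 CPM in the controls. Of 7 B cell genes, Ms4a1 had at most 1 count in any sample, and the 7 summed to 13.4 and 13.3 CPM with IFNα and to 20.3 and 18.7 CPM in the controls. Most of that sum was Cd79b and Cd79a. Cd79b had 8.03 and 7.61 CPM with IFNα and 16.2 and 12.4 CPM in the controls. Cd79a had 4.71 and 4.36 CPM with IFNα and 3.41 and 5.36 CPM in the controls. Neither passed the test. Of 4 epithelial genes, Epcam had 87 and 119 counts with IFNα and 107 and 108 in the controls, more than Sdc1 in every sample. The 4 endothelial genes summed to 163 and 167 CPM with IFNα and to 174 and 177 CPM in the controls, nearly all Pecam1. No tested epithelial or endothelial gene passed, and the part of such cells in the syndecan counts was not tested. Lists for CD4+ T cells, NK cells, neutrophils, erythroid cells and platelets were also summed.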

How the data were processed

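RNA of 4 samples, 2 with IFNα and 2 controls grouped by their treatment labels, was sequenced by the authors on an Illumina HiSeq from NEBNext Ultra libraries and mapped with Hisat2 v2.0.5. The deposited values are raw, whole-number counts per gene, and the submitters' processing notes name HISAT2 and featureCounts of Subread. The notes name the build mm9, but 53462 of 54532 genes, the syndecans included, had the chromosome, start and end of GENCODE M21 on GRCm38, so positions are given on that build. For the counter, neither version nor strand setting is given in the sources used here. Single-sample files and the series table held the same values (0 counts differed).

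The analysis used edgeR 4.0.16 in R 4.3.3. Genes were kept by filterByExpr (minimum count 10, minimum total 15), which left 14417 genes, and were scaled by TMM. A robust quasi-likelihood model with a term for the condition was tested on 2 residual degrees of freedom with Benjamini-Hochberg adjustment over all tested genes, as the study used edgeR without naming its test. Calls needed an adjusted p below 0.05 together with a change of more than 2-fold, and a list member passed at the adjusted p alone. CPM used TMM library sizes, and levels per kilobase used the exonic length in the files. Ratios of counts have exact conditional binomial intervals. The test was also run on simulated counts with known changes. Its outcome there is not given here, and whether the simulation had the uneven spread of these groups is not stated. Nothing is read from it.

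The members and lists were chosen with earlier results of these data known. From each list the text names up to 4 passing genes by size of change (if fewer than 2 passed, the 2 of lowest p) and the gene of highest level per kilobase, and for each tested syndecan the 3 genes of most similar profile. Other settings tried were scaling by RLE, total counts or upper quartile, and a looser and a stricter filter. There were 4 other tests (limma-voom 3.58.1, DESeq2 1.42.0 and edgeR's likelihood ratio and exact tests). A replicate block, a block of crossed pairs added after the data had been seen, an offset for gene length and leaving out each sample were also tried. All of these refit the same 4 samples, so they are not independent tests. At 16096121 to 17676062 counts per sample a limit of 3 counts was used where a group had 0. No protein sequences were used here, and the promoter windows, 3 of 4 matched, are from RefSeq.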

Additional observations from a re-analysis of the deposited data

How the results depend on the processing

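The log2 fold change of Sdc3 ran from 5.46 to 5.54 over 12 other settings and from 5.28 to 5.83 when 1 sample was left out. For Sdc1 it ran from -1.0 to -0.90 over 11 settings and from -1.28 to -0.58 leaving out 1 sample, and for Sdc4 from -0.79 to -0.63 and from -1.28 to -0.31. None changed sign. With 2 samples in a group, the shift on leaving 1 out is set by the difference between its replicates and says nothing about stability. Sdc1 and Sdc4 have no value under the filter at a mean of 5 CPM.

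Counts of called genes depended more on the settings. The higher and lower counts, 185 and 20, became 295 and 87 by the exact test of edgeR and 298 and 94 by its likelihood ratio test. For lower genes only, the count was 62 without a filter, 38 with DESeq2, 34 with the gene length offset and 32 with no fold threshold. Leaving out 1 sample gave 216 to 966 higher and 23 to 267 lower genes, the largest without control replicate 2. Of the 99 tested list genes, 2 were higher and 0 lower. The higher count was 1 with the filter at a mean of 5 CPM, which removes Vegfa, and the lower count was 1 with upper-quartile or total-count scaling, 3 with no filter, 4 with the exact and the likelihood ratio test, 2 with DESeq2 and 5 with the length offset. Leaving out 1 sample gave 1 to 22 higher and 0 to 21 lower. A control left alone in its group has its spread estimated from the other group. The cause of these shifts was not tested.

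With the replicate number as a block, 253 genes were called higher and 37 lower, and 2 list genes were higher and 2 lower. For same-numbered samples, deviations from the group means had a correlation of -0.14 over tested genes and -0.30 over genes at 5 CPM or more. Crossed pairs gave 0.14 and 0.30, as they must with 2 samples per group, so the sign alone says little. Nothing in the labels says that a number marks a shared source. A block of crossed pairs was added after the data had been seen and gave 337 higher and 91 lower genes, with 5 and 4 among the list genes. Among values of single named list genes under other settings, 269 stayed on their side of the threshold, 45 newly passed it and 1 no longer did (Vegfa without IFNα replicate 2). Depth limits Sdc1, Sdc2 and Sdc4, whose counts are 29 or fewer in every sample.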
